A study of Mus musculus with 12 samples.

Results

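The podocyte genes described here are *Nphs1*, *Magi2*, *Podxl*, *Ptpro*, *Wt1*, *Cdkn1c*, *Synpo* and *Nes*. They are 8 of the 35275 genes counted in whole mouse kidney, chosen by symbol with the row of highest count taken for each. Kidney RNA came from 12 mice on the C57BL/6J background, all 6 months old. The 4 WT mice carried wild-type alleles of both genes under study. The 4 RC/RC mice were homozygous for RC, a hypomorphic missense knock-in allele of *Pkd1*, and model slowly progressive autosomal dominant polycystic kidney disease. The 4 RC/RC:Casp1KO mice were homozygous for the same *Pkd1* allele and, in addition, for a germline TALEN-made deletion in *Casp1* (named Del3) that removes the active-site cysteine of Caspase-1. That deletion was carried by 1 line only, and it is present in every cell type. The study's methods give each group 2 females and 2 males. The columns of the count table name each mouse (B6_ for WT, RC for RC/RC and Del3_ for RC/RC:Casp1KO, with a number) and not its sex, so no value is given by sex.

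Podocytes are the octopus-shaped epithelial cells that wrap the capillaries of the glomerulus, where blood is filtered. Their interlocking foot processes are joined by the slit diaphragm, a cell junction built around nephrin, and are held in shape by actin and coated on the urinary side by a sialic acid-rich layer. They are mature cells that rarely divide, and loss of them or of nephrin leads to protein in the urine. Polycystic kidney disease is mainly a disease of the tubules, so the comparisons ask what happens to transcripts of a glomerular cell when cysts have formed, and when Caspase-1, the protease of the inflammasome, is also lost.

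The libraries held 18019819 to 24869454 counted reads per mouse. Each podocyte gene was covered by 225 counts or more in every mouse, the lowest being *Wt1* in an RC/RC mouse and the highest 7916 for *Podxl* in a WT mouse. All 8 genes passed the filter on low counts in all 3 comparisons. Levels are given as FPKM, in which reads are divided by gene length and by a library size scaled by TMM over the 12 mice. Differences are log2 fold changes fitted to the counts with edgeR (quasi-likelihood), and "significant" means a Benjamini-Hochberg adjusted p-value under 0.05 over all genes tested. In bulk tissue a lower level from fewer podocytes and from less RNA per podocyte cannot be told apart.

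*Casp1* was examined first as a check of the labels. Its counts were 26 to 43 in WT, 61 to 87 in RC/RC and 10 to 23 in RC/RC:Casp1KO mice, and no pair of groups overlapped in FPKM. The gene was significantly higher in RC/RC than in WT (log2 fold change 1.21, edgeR adjusted p = 0.0142) and significantly lower in RC/RC:Casp1KO than in RC/RC (-2.35, edgeR adjusted p = 0.00514). *Pkd1* differed significantly in no comparison, with a log2 fold change of 0.06 in RC/RC against WT (edgeR adjusted p = 0.878).

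The levels in WT kidney are given first, in order. *Podxl*, which encodes the surface sialomucin podocalyxin, was far above the rest at 57.1 ± 11.4 FPKM (SD, n = 4), and its lowest WT mouse (44.9 FPKM) was above the highest WT value of any other member. *Cdkn1c* (19.5 ± 5.93 FPKM) and *Synpo* (18.8 ± 3.51 FPKM) came next and overlapped each other. *Nes* (7.67 ± 1.14 FPKM), *Nphs1* (7.37 ± 1.21 FPKM) and *Wt1* (5.29 ± 1.17 FPKM) formed a chain in which neighbours overlapped. *Ptpro* (3.37 ± 0.56 FPKM) and *Magi2* (2.80 ± 0.27 FPKM) were lowest, also overlapped, and stood below *Wt1* in every WT mouse. *Podxl* is also made by vascular endothelium and *Nes* by cells of the vessel wall, so these members are not exclusive to podocytes in whole kidney.

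**Figure D1:**
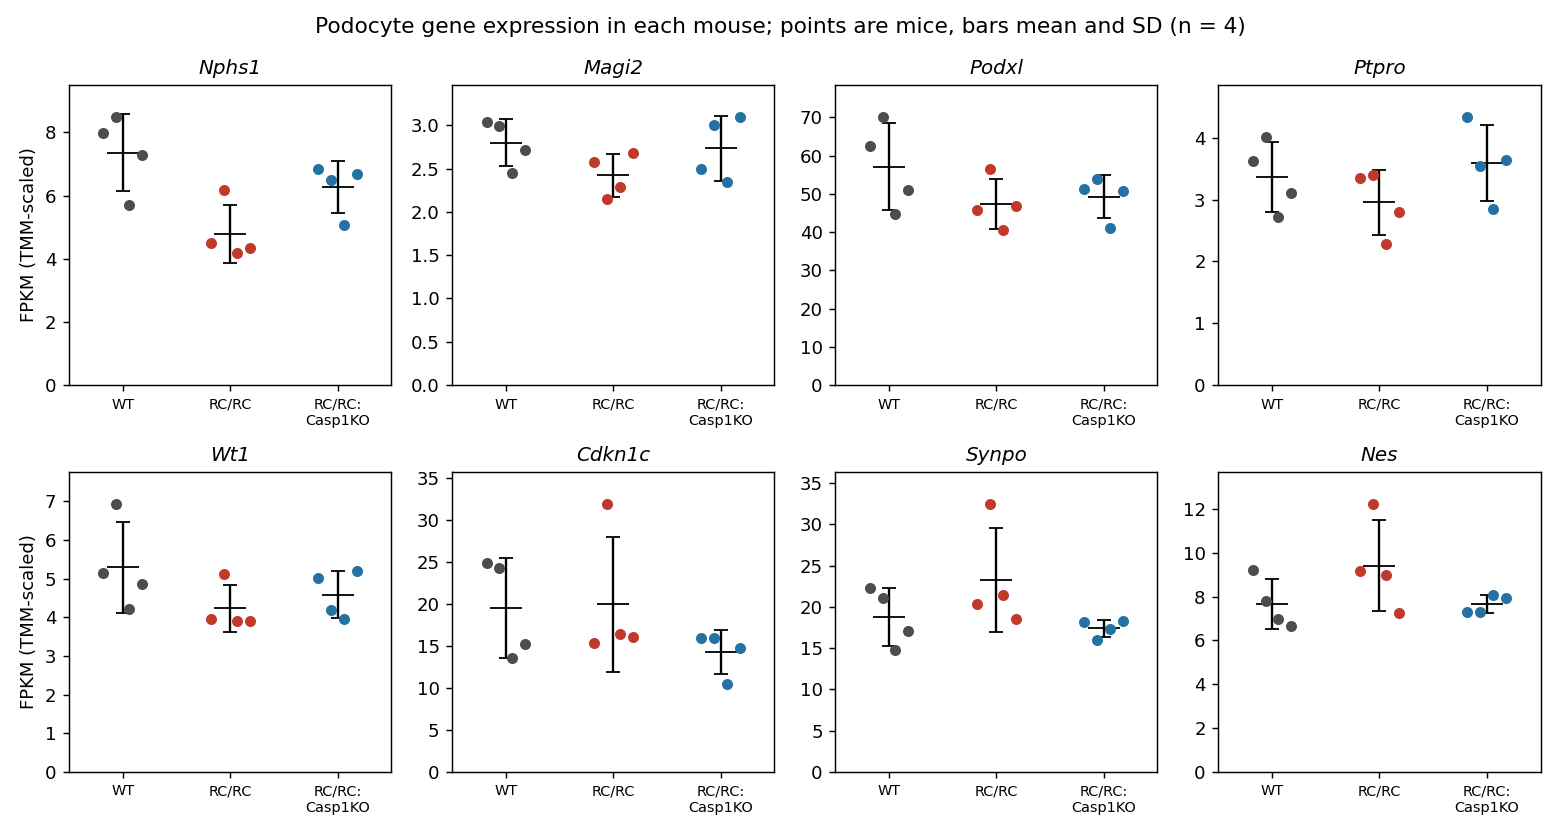
FPKM (vertical axis, from 0) of each of the 8 podocyte genes in each mouse, with 1 point per mouse and bars for the mean and SD of the 4 mice of a group. *Nphs1* is lower in 3 of the RC/RC mice (4.19 to 4.49 FPKM) than in any other mouse, and in 7 of 8 panels 1 RC/RC mouse, RC139, is the highest of its group.

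The first role is the slit diaphragm and its scaffold. *Nphs1* (ENSMUSG00000006649, chr7:30458315-30487223, plus strand, mm10) encodes nephrin, the adhesion protein that spans the slit. Its level in WT mice B6_2, B6_3, B6_4 and B6_6 was 7.98, 8.49, 5.71 and 7.28 FPKM, from 771, 821, 523 and 712 counts. In RC/RC mice RC105, RC139, RC140 and RC143 it was 4.49, 6.16, 4.19 and 4.34 FPKM, from 541, 536, 359 and 466 counts. RC/RC:Casp1KO mice Del3_42, Del3_60, Del3_70 and Del3_105 had 6.85, 6.48, 5.07 and 6.69 FPKM, from 569, 782, 507 and 646 counts. The 3 lowest of the 12 mice were thus RC/RC, while RC/RC mouse RC139 was above WT mouse B6_4, so that the 2 groups overlapped.

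*Nphs1* was significantly lower in RC/RC than in WT, falling by 0.62 on the log2 scale (SE 0.16, 95% interval -0.99 to -0.25, edgeR adjusted p = 0.0372), from 7.37 ± 1.21 to 4.79 ± 0.92 FPKM (SD, n = 4). It was the only podocyte gene to pass, 1 of 8 members in either direction, beside 12.9% of all 15243 genes tested in this comparison (9.76% higher and 3.18% lower). That share is close to the background. The call was lost when library size alone set the scale. It was also lost with limma on either pseudocount, which used library size alone too, and when any of 6 single mice was left out. It was kept without WT mouse B6_4 and without RC/RC mouse RC139, whose removal gave -0.79 (edgeR adjusted p = 0.014). The estimate stayed negative throughout.

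*Nphs1* in RC/RC:Casp1KO kidney was at 6.27 ± 0.82 FPKM, between the other groups. Against RC/RC the log2 fold change was 0.38 (95% interval 0.03 to 0.73, edgeR adjusted p = 0.127), which did not pass. Against WT it was -0.23 (95% interval -0.55 to 0.09, edgeR adjusted p = 0.37), an interval that includes 0. RC/RC:Casp1KO mouse Del3_70 was the lowest of its group. *Nphs1os*, annotated on the other strand within *Nphs1*, drew 6 counts in all 12 mice, beside 7233 for *Nphs1*. The strand setting of the counting is not given in the sources used here, so reads of the pair cannot be told apart.

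*Magi2* (ENSMUSG00000040003, chr5:19227046-20704798, plus strand) encodes a membrane-associated guanylate kinase that binds nephrin from inside the cell. It was at 2.80 ± 0.27 FPKM in WT, 2.42 ± 0.25 in RC/RC and 2.73 ± 0.37 in RC/RC:Casp1KO mice. The groups overlapped in each comparison. The log2 fold changes were -0.21 in RC/RC against WT (edgeR adjusted p = 0.282) and 0.16 in RC/RC:Casp1KO against RC/RC (edgeR adjusted p = 0.432). It was the 1 member in which RC/RC mouse RC139 was the lowest of its group, at 2.15 FPKM. *Nphs1* was at its RC/RC maximum in that mouse.

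Windows at RefSeq starts of the podocyte genes were searched for the letters of factors known in podocytes, on both strands, in the 250 bases before each start in RefSeq (GRCm38.p6, which is mm10). Among 7 members searched, *Nphs1*, *Magi2*, *Ptpro* and *Nes* had windows, 5 in all. *Podxl*, *Wt1* and *Cdkn1c* are named only. The *Nphs1* window (chr7:30459808-30460057) lies inside the gene as the deposited coordinates give it, at an internal start, so the sequence before the deposited start of *Nphs1* was not searched. The letters were GCGTGGGAG for WT1, TAATTA for LMX1B, CAGCTG for TCF21 and GTAAACA for FOXC, and they occur in 0.405%, 4.84%, 13.0% and 3.17% of all 32851 windows. TAATTA and CAGCTG read the same on both strands. Matches were in *Magi2* alone. CAGCTG lay at base 26 of the window at its first start (chr5:19226796-19227045), and TAATTA at base 24 of the window at an internal start. The latter window holds the letters of LMX1B, a regulator of podocyte differentiation. It alone is shown because the window at the first start lies in an annotated 5' untranslated region, as does that of *Nphs1*. The window shown lies at chr5:19907268-19907517 on the plus strand, and the capitals mark TAATTA.
Magi2 internal start: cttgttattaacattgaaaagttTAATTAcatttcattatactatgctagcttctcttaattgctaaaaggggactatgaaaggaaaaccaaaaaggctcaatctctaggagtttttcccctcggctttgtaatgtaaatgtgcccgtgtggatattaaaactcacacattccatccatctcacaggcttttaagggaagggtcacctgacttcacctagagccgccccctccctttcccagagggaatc
A match of letters is a description of the window and not a binding site.

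The second role is the apical surface. *Podxl* (ENSMUSG00000025608, chr6:31519488-31563981, minus strand) encodes podocalyxin, whose negative charge keeps foot processes apart. WT mice B6_2, B6_3, B6_4 and B6_6 had 62.6, 70.1, 44.9 and 51.0 FPKM. RC/RC mice RC105, RC139, RC140 and RC143 had 45.8, 56.4, 40.5 and 46.9 FPKM. RC/RC:Casp1KO mice Del3_42, Del3_60, Del3_70 and Del3_105 had 51.3, 53.9, 41.1 and 50.8 FPKM. The 2 highest mice were WT, but the rest of the WT mice lay inside the range of both RC/RC groups. The log2 fold change was -0.27 in RC/RC against WT (95% interval -0.65 to 0.11, edgeR adjusted p = 0.32) and 0.05 in RC/RC:Casp1KO against RC/RC (edgeR adjusted p = 0.852).

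*Ptpro* (ENSMUSG00000030223, chr6:137252299-137464629, plus strand) encodes a receptor tyrosine phosphatase of the foot process membrane, also called GLEPP1. Its level was 3.37 ± 0.56 FPKM in WT, 2.95 ± 0.53 in RC/RC and 3.59 ± 0.61 in RC/RC:Casp1KO mice, with overlap between all groups. RC/RC:Casp1KO mouse Del3_42 had the highest value of the 12 mice, 4.33 FPKM. It was the member with the highest estimate in RC/RC:Casp1KO kidney, with a log2 fold change of 0.10 against WT (95% interval -0.26 to 0.45, edgeR adjusted p = 0.748), which is within the spread.

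The third role is control of transcription and of the cell cycle. *Wt1* (ENSMUSG00000016458, chr2:105126529-105173616, plus strand) encodes the zinc-finger factor on which podocyte identity depends. WT mice B6_2, B6_3, B6_4 and B6_6 had 5.15, 6.94, 4.20 and 4.87 FPKM. In RC/RC mice RC105, RC140 and RC143 the level was nearly uniform, 3.96, 3.91 and 3.92 FPKM, and lower than in any WT mouse, while RC/RC mouse RC139 had 5.13 FPKM. The log2 fold change of -0.32 (95% interval -0.71 to 0.06, edgeR adjusted p = 0.244) did not pass. RC/RC:Casp1KO mice ranged from 3.97 to 5.19 FPKM, inside the range of the other mice.

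*Cdkn1c* (ENSMUSG00000037664, chr7:143458350-143461050, minus strand) encodes p57, the cyclin-dependent kinase inhibitor that marks podocytes withdrawn from the cell cycle. WT mice B6_2, B6_3, B6_4 and B6_6 had 25.0, 24.3, 13.6 and 15.3 FPKM. RC/RC mice RC105, RC139, RC140 and RC143 had 15.3, 32.0, 16.4 and 16.1 FPKM. RC/RC:Casp1KO mice Del3_42, Del3_60, Del3_70 and Del3_105 had 15.9, 16.0, 10.5 and 14.7 FPKM. A pair of WT mice and 1 RC/RC mouse were thus far above the other 9 mice. It had the widest spread of the members within WT (coefficient of variation 30.4%) and within RC/RC (40.2%), and its fold change against WT in RC/RC, 0.03 on the log2 scale (95% interval -0.61 to 0.67, edgeR adjusted p = 0.954), carried no direction. Without mouse RC139 that estimate was -0.31.

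The fourth role is the cytoskeleton. *Synpo* (ENSMUSG00000043079, chr18:60593973-60660142, minus strand) encodes synaptopodin, an actin-associated protein of foot processes. WT mice B6_2, B6_3, B6_4 and B6_6 had 22.3, 21.1, 14.7 and 17.0 FPKM. RC/RC mice RC105, RC139, RC140 and RC143 had 20.3, 32.5, 21.5 and 18.6 FPKM. RC/RC:Casp1KO mice Del3_42, Del3_60, Del3_70 and Del3_105 had 18.1, 16.0, 17.3 and 18.3 FPKM, all below the lowest RC/RC mouse. It was the only one of the 8 members whose RC/RC:Casp1KO and RC/RC mice did not overlap, beside 20.4% of all genes (11.8% higher and 8.65% lower). The log2 fold change was -0.42 (95% interval -0.81 to -0.04), and it did not pass after adjustment (edgeR adjusted p = 0.126). Without RC139 the estimate was -0.19. In RC/RC against WT it was 0.31 (edgeR adjusted p = 0.339), with overlap, and 0.08 without RC139.

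*Nes* (ENSMUSG00000004891, chr3:87971078-87980451, plus strand) encodes nestin, an intermediate filament protein. Its level was 7.67 ± 1.14 FPKM in WT, 9.41 ± 2.07 in RC/RC and 7.66 ± 0.40 in RC/RC:Casp1KO mice. The highest mouse of all was RC/RC mouse RC139 at 12.2 FPKM. The log2 fold change was 0.29 in RC/RC against WT (edgeR adjusted p = 0.27) and -0.31 in RC/RC:Casp1KO against RC/RC (edgeR adjusted p = 0.176). These became 0.12 and -0.13 without RC139. *Synpo* and *Nes* were also the members with the tightest values among RC/RC:Casp1KO mice, with coefficients of variation of 5.95% and 5.28%.

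**Figure D2:**
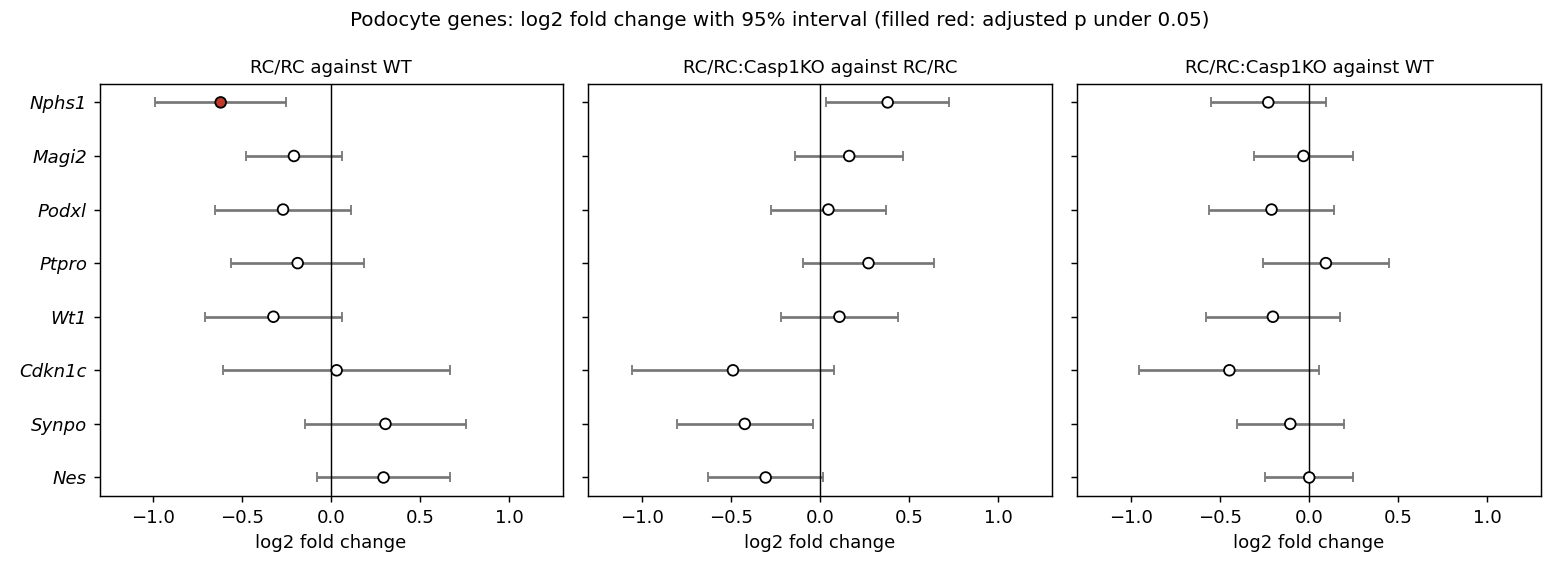
Log2 fold change (horizontal axis) of the 8 podocyte genes in the 3 comparisons, with bars for the 95% interval from edgeR's quasi-likelihood fit and red fill for an adjusted p-value under 0.05. *Nphs1* in RC/RC against WT (-0.62) is the single filled point, and 21 of the 24 intervals include 0.

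Across the 8 members, the median log2 fold change was -0.20 in RC/RC against WT (3 positive and 5 negative estimates), beside -0.02 over all genes tested. With single mice left out it ranged from -0.30 to -0.13, and it was -0.30 without RC/RC mouse RC139. The median was 0.08 in RC/RC:Casp1KO against RC/RC (5 positive, 3 negative), beside -0.03, and ranged from 0.02 (without RC140) to 0.15 (without RC139 or Del3_70). It was -0.15 in RC/RC:Casp1KO against WT (2 positive, 6 negative), beside 0.01, with a range of -0.27 (without B6_4) to -0.05 (without B6_3). No member was significant in either of the comparisons with RC/RC:Casp1KO mice by edgeR, DESeq2 or limma. Of all genes edgeR called 11.6% against RC/RC (7.23% higher and 4.41% lower) and 2.03% against WT (1.13% higher and 0.893% lower). Members whose groups did not overlap in FPKM numbered 0 of 8 in RC/RC against WT, beside 19.6% of all genes (12.6% higher and 7.05% lower), and 0 of 8 in RC/RC:Casp1KO against WT, beside 13.9% (7.41% higher and 6.50% lower). At an unadjusted p-value under 0.05, edgeR gave 1 member in RC/RC against WT, 2 in RC/RC:Casp1KO against RC/RC (*Nphs1* and *Synpo*) and 0 in RC/RC:Casp1KO against WT, beside 29.2%, 31.7% and 21.8% of all genes. The comparisons share mice, so their values are set side by side and were not tested against each other.

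The members also varied together between mice of 1 group. WT mice B6_2 and B6_3 were both above WT mice B6_4 and B6_6 in all 8 members. The libraries as a whole split in the same way, with a chi-square over its degrees of freedom of 17.7 for B6_2 with B6_3 and 16.4 for B6_4 with B6_6, and of 89.8 to 127 for the 4 pairs across. In RC/RC:Casp1KO it was 15.7 for Del3_60 with Del3_105, 31.8 for Del3_42 with Del3_70 and 67.1 to 93.4 for the pairs across. In RC/RC it was 37.2 for RC140 with RC143 and 67.6 to 128 for all other pairs. Each group held 2 females and 2 males, no fit included sex, and its part in these splits was not tested. RC/RC mouse RC139 was the highest of its group in 7 members, and RC/RC:Casp1KO mouse Del3_70 the lowest of its group in 6. The summed level of the 8 members was 138.9, 145.7, 95.3 and 107.9 FPKM in WT mice B6_2, B6_3, B6_4 and B6_6. It was 149.9 FPKM in RC139, the highest of the 12 mice, and below that of B6_6 in the 3 other RC/RC mice. It was 111.3, 110.4, 91.2 and 110.3 FPKM in RC/RC:Casp1KO mice Del3_42, Del3_60, Del3_70 and Del3_105. The sums therefore overlapped between all groups. As a description over 12 mice that share their libraries, the mean z-score of the members followed *Podxl* most closely (Pearson r = 0.95) and *Nes* least (r = 0.40), each gene being itself part of the score.

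RC/RC mouse RC139 was at the end of the range in other ways too. It had the fewest counted reads (18019819) and the largest share from mitochondrial genes (12.1%). Other mice were close in both, with 18738755 reads in Del3_42 and a mitochondrial share of 11.6% in RC140. Among the RC/RC mice RC139 had the highest summed fibroblast markers (427.1 FPKM, the others 191.7 to 244.7) and smooth muscle and pericyte markers (337.7 FPKM, the others 126.1 to 181.5). It also had the highest general endothelial markers (438.6 FPKM, the others 240.1 to 338.6) and mesangial markers (267.2 FPKM), and the lowest tubule markers (2461.9 FPKM). Its sums of glomerular endothelial, parietal epithelial and leukocyte markers were inside the range of the other RC/RC mice. The part of any of these in its podocyte values was not tested.

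The other members were also expressed as ratios to *Nphs1* within each mouse, which does not depend on the scaling between libraries. In RC/RC against WT all 7 ratios were higher on average, and in 6 of 7 every RC/RC mouse was above every WT mouse. *Synpo* went from 2.55 ± 0.19 to 4.80 ± 0.47 times *Nphs1*, and *Nes* from 1.05 ± 0.16 to 1.96 ± 0.20 (SD, n = 4). *Cdkn1c* went from 2.62 ± 0.47 to 4.06 ± 0.78, *Podxl* from 7.74 ± 0.53 to 9.96 ± 0.71, *Wt1* from 0.717 ± 0.077 to 0.888 ± 0.043 and *Ptpro* from 0.457 ± 0.022 to 0.621 ± 0.095. *Magi2* overlapped between the groups (0.384 ± 0.032 and 0.521 ± 0.119, exact permutation test p = 0.143).

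Each of the 6 separated ratios had p = 0.0286 in the two-sided exact permutation test of 4 against 4 mice. That is the smallest p this design allows, and 0.05 after adjustment over 21 tests, at the threshold and not under it. All 7 share *Nphs1* as the denominator, so they are not independent of each other. *Nphs1* had the lowest estimate of the 8 members in RC/RC against WT and the highest in RC/RC:Casp1KO against RC/RC. With it as denominator, all 7 ratios were therefore bound to be higher in the first comparison and lower in the second. Some numerators also moved that way by their own estimates, *Synpo* (0.31) and *Nes* (0.29) in the first, and *Cdkn1c* (-0.49), *Synpo* (-0.42) and *Nes* (-0.31) in the second, none of them significant. By the same measure 36.0% of all genes were non-overlapping and higher relative to *Nphs1*, and 0.440% lower. RC139 had the highest ratio of the RC/RC mice for *Cdkn1c* and *Synpo* and the lowest for *Magi2*, *Podxl* and *Wt1*.

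All 7 ratios were lower on average in RC/RC:Casp1KO than in RC/RC mice. *Synpo* was at 2.81 ± 0.41 times *Nphs1*, *Nes* at 1.24 ± 0.24, *Cdkn1c* at 2.27 ± 0.17, *Podxl* at 7.88 ± 0.40 and *Wt1* at 0.734 ± 0.063. In these 5 of the 7 ratios every RC/RC:Casp1KO mouse was below every RC/RC mouse (exact permutation p = 0.0286 each, adjusted 0.05), beside 21.5% of all genes lower and 2.14% higher. *Magi2* and *Ptpro* overlapped. Against WT only *Ptpro* separated, at 0.571 ± 0.042 and higher (exact permutation p = 0.0286, adjusted 0.05), beside 7.02% of all genes higher and 0.938% lower.

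**Figure D3:**
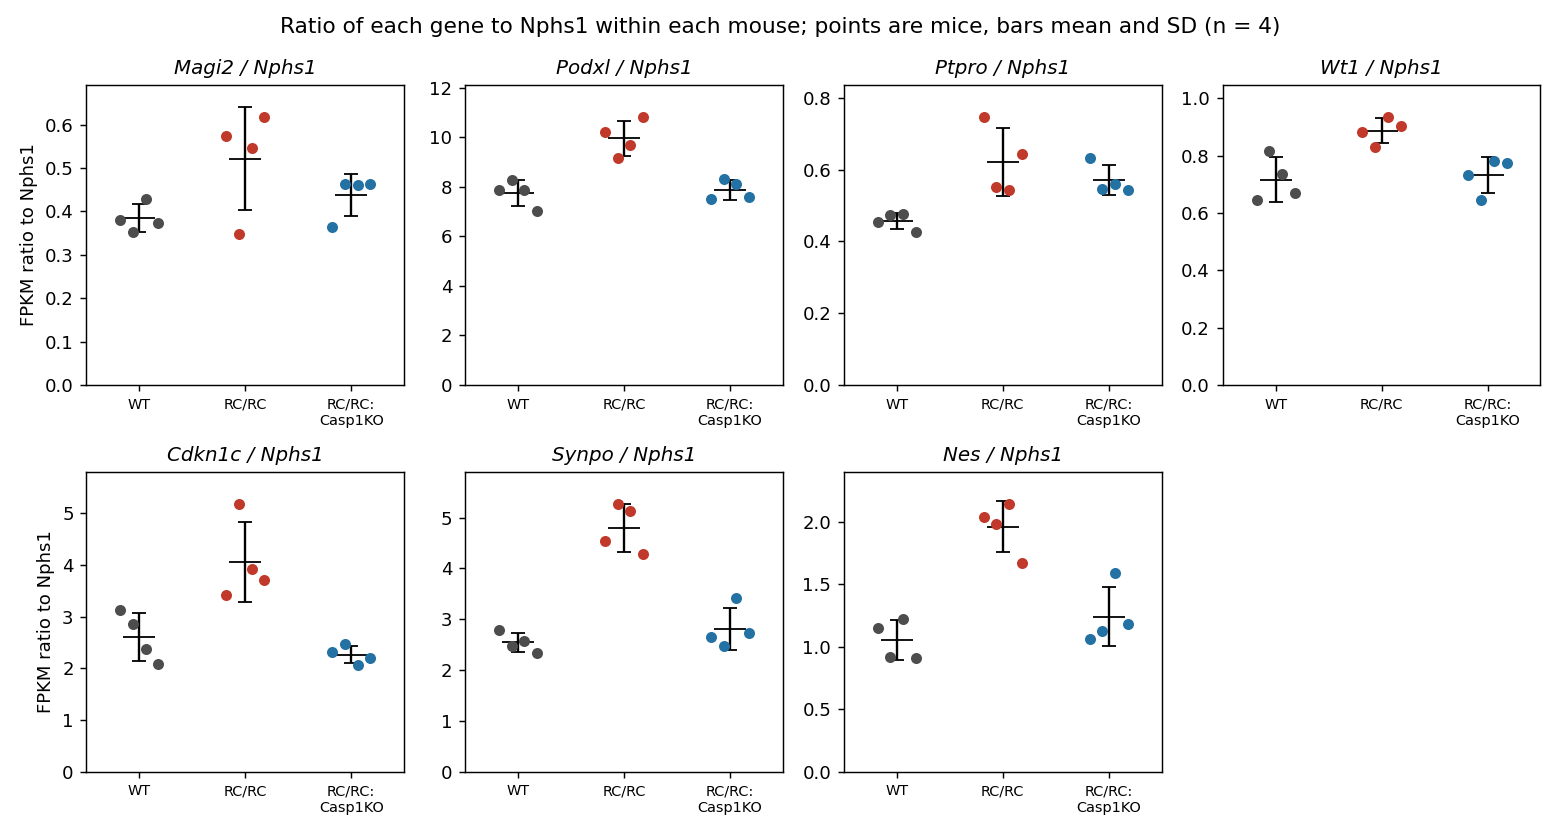
Ratio of the FPKM of each other podocyte gene to that of *Nphs1* within each mouse (vertical axis, from 0), with 1 point per mouse and bars for the mean and SD of 4 mice. In the panels of *Synpo* and *Nes* the 4 RC/RC mice lie above all 8 other mice, and for *Magi2* the groups overlap.

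Beyond the 8 members, 55 other genes known in podocytes were read from the same fits, and 54 were tested in RC/RC against WT. Their median log2 fold change was 0.05, with 5 significantly higher, 4 significantly lower and 45 not significant, beside 9.76% of all genes higher and 3.18% lower. Without RC139 the median was -0.08. The 5 that rose were *Kirrel3*, *Sulf1*, *Tcf21*, *Kirrel* and *Inf2*. The 4 that fell were *Tdrd5*, *Vegfa*, *Ildr2* and *Mapt*. *Mapt*, *Inf2* and *Ildr2*, with *Col4a4* below, are named after their values were seen.

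Among slit diaphragm genes, *Kirrel*, which encodes the nephrin-binding protein NEPH1, rose by a log2 fold change of 0.74 (SE 0.16, edgeR adjusted p = 0.0176), the opposite direction to *Nphs1*. Its WT mice had 2.67 to 3.13 FPKM and its RC/RC mice 3.85 to 6.62 FPKM, without overlap. *Kirrel3*, a paralogue, rose from 0.143 ± 0.071 to 0.500 ± 0.231 FPKM (log2 fold change 1.79, edgeR adjusted p = 0.0348), at levels that are low throughout.

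The other genes that rose were *Sulf1*, a heparan sulfate endosulfatase (log2 fold change 1.60, edgeR adjusted p = 0.0032), *Tcf21*, a transcription factor of podocytes and of interstitial stroma (1.52, edgeR adjusted p = 0.0251), and *Inf2*, a formin (0.69, edgeR adjusted p = 0.0449). *Tcf21* was at 47.5, 81.6, 57.6 and 22.0 FPKM in RC/RC mice RC105, RC139, RC140 and RC143 and at no more than 24.5 FPKM in WT mice, so that the groups overlapped through RC/RC mouse RC143. *Vegfa*, the growth factor by which podocytes maintain glomerular endothelium and which tubules also make, was at 58.3 to 99.1 FPKM in WT and 36.8 to 48.4 FPKM in RC/RC mice, and fell (log2 fold change -0.79, edgeR adjusted p = 0.0276). Every RC/RC mouse was below every WT mouse. *Tdrd5* fell from 1.50 ± 0.26 to 0.785 ± 0.135 FPKM (-0.94, edgeR adjusted p = 0.0165), *Ildr2* by 0.76 and *Mapt*, which encodes tau, by 0.65 on the log2 scale.

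In RC/RC:Casp1KO against RC/RC, 5 of 54 other podocyte genes were significantly higher and 3 lower, beside 7.23% and 4.41% of all genes. Their median was -0.03, and 0.12 without RC139. *Vegfa* had the smallest adjusted p-value of them, reaching 86.1 ± 5.25 FPKM (log2 fold change 0.96, SE 0.13, edgeR adjusted p = 0.0041), and every RC/RC:Casp1KO mouse (80.6 to 93.1 FPKM) was above every RC/RC mouse (36.8 to 48.4 FPKM). *Lama5*, a laminin chain, rose from 10.3 ± 1.75 to 18.7 ± 3.94 FPKM (0.85, edgeR adjusted p = 0.0191). *Col4a3* rose from 15.0 ± 6.03 to 30.0 ± 2.92 FPKM (1.00, edgeR adjusted p = 0.0399) and *Col4a4* had a log2 fold change of 0.75 (edgeR adjusted p = 0.0469). These are collagen IV chains that tubules also make in part of the nephron. *Col4a5*, *Agrn* and *Lamb2*, which encode other basement membrane proteins on the list and were looked at after their values were seen, did not pass (0.36, 0.49 and 0.05, edgeR adjusted p = 0.109, 0.0757 and 0.836).

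*Bmp7*, a growth factor of podocytes and tubules, rose as well (0.50, edgeR adjusted p = 0.0323). The 3 that fell were *Pdpn*, which encodes podoplanin (-0.65, edgeR adjusted p = 0.0403), *Arhgdia*, a GDP dissociation inhibitor (-0.57, edgeR adjusted p = 0.0315), and *Cd151*, a tetraspanin (-0.48, edgeR adjusted p = 0.0375), each without overlap. *Ezr* and *Actn4*, which with *Arhgdia* had the highest levels on the list (*Ezr* 169 ± 22.9 and *Actn4* 127 ± 15.1 FPKM in WT), passed in no comparison. Against WT, 0 of 53 genes tested in RC/RC:Casp1KO passed by edgeR, and 10 had an unadjusted p-value under 0.05, beside 21.8% of all genes.

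These counts depended on single mice. With each of 8 mice left out in turn, 2 to 10 other podocyte genes passed in RC/RC against WT, and *Sulf1* was the only one to pass in all 8 fits. The share of all genes called fell in most of these fits too, from 12.9% with all mice. The count was 2 higher and 0 lower without WT mouse B6_6 (7.51% of all genes) or without RC/RC mouse RC140 (8.64%), and 2 and 2 without B6_3 (9.18%). Without RC139 it was 2 higher (*Kirrel* and *Sulf1*) and 2 lower (*Tdrd5* and *Lmx1b*), beside 8.22% of all genes, and without B6_4 3 higher and 2 lower (10.4%). It was highest without RC143, at 5 higher and 5 lower (15.7%). In RC/RC:Casp1KO against RC/RC, 1 to 11 passed, and *Vegfa* was the only one to pass in all 8 fits. The count was 1 higher and 0 lower without RC140 (2.77% of all genes, beside 11.6% with all mice) or Del3_105 (2.8%). It was 2 and 0 without Del3_42 (5.13%) or Del3_60 (3.88%), and 3 and 2 without Del3_70 (9.04%). It rose to 8 higher and 3 lower without RC105 (17.8%) and to 5 and 6 without RC143 (12.7%). Without RC139, 3 were higher (*Vegfa*, *Lama5* and *Ddn*) and 0 lower, beside 4.79% of all genes.

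**Figure D4:**
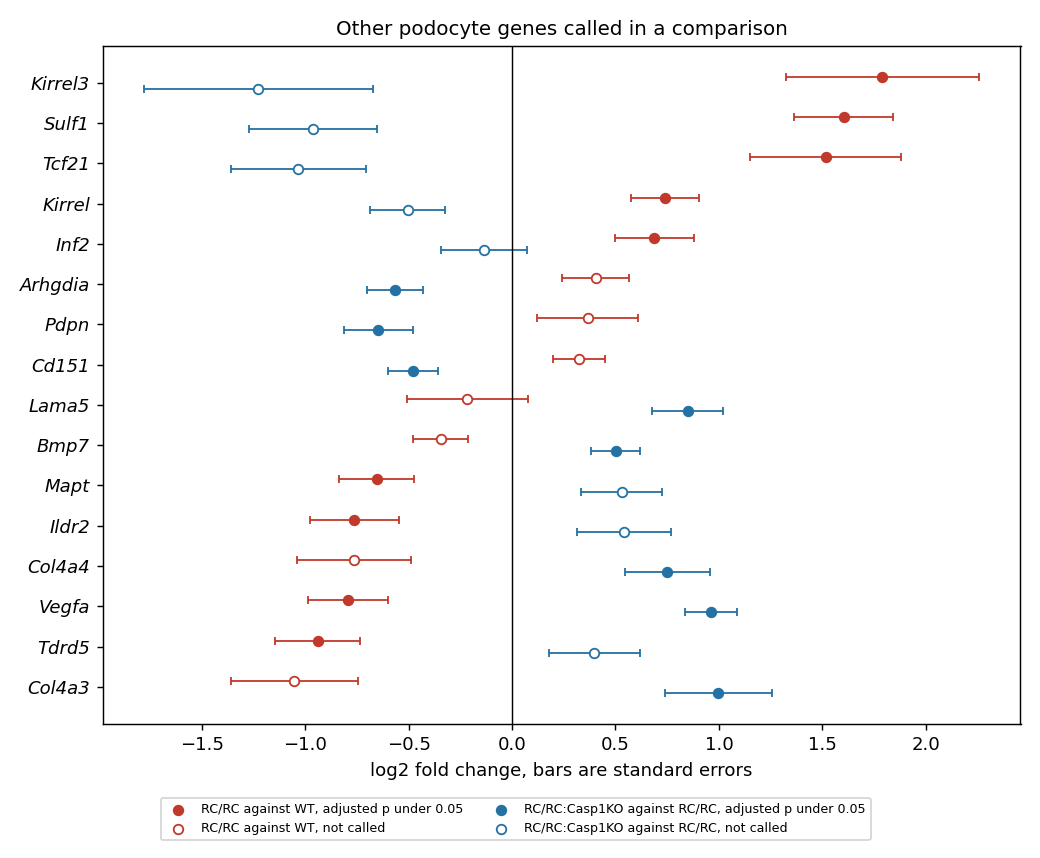
Log2 fold change (horizontal axis) with its standard error for the 16 other podocyte genes that were significant in a comparison, in RC/RC against WT (red) and RC/RC:Casp1KO against RC/RC (blue), filled where the adjusted p-value is under 0.05. *Vegfa* is the 1 gene filled in both, at -0.79 and 0.96, and its opposite signs rest on the same 4 RC/RC mice.

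Markers of neighbouring cells were read beside the podocyte genes, since whole kidney holds them all. In RC/RC against WT the lists changed unequally. Of all genes, 9.76% were called higher and 3.18% lower. Fibroblast markers were significantly higher in 8 of 8 genes, and their summed level was 51.5 ± 6.69 FPKM in WT and 275.0 ± 104.1 in RC/RC mice. *Dcn*, which encodes decorin and was the most abundant of them, rose by 2.47 on the log2 scale (edgeR adjusted p = 0.000394). Leukocyte markers were higher in 7 of 8, with a sum of 26.1 ± 1.20 and 50.0 ± 8.86 FPKM. The most abundant of them, *Csf1r*, did not pass (0.50, edgeR adjusted p = 0.0828), whereas *Itgam* did (1.76, edgeR adjusted p = 0.000688).

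The lists for other glomerular cells differed from each other. Mesangial markers, some of which other stromal cells of the kidney also express, were higher in 4 of 8 and lower in 0, with *Serpine2* at 5.90 ± 0.41 FPKM in WT and 22.2 ± 7.96 in RC/RC (log2 fold change 1.91, edgeR adjusted p = 0.00129), while the most abundant, *Igfbp5*, did not pass (0.22). Glomerular endothelial markers were higher in 1 of 8, *Sema3c* (0.58, edgeR adjusted p = 0.0365), and had a median of -0.04. Their most abundant gene, *Lpl*, had 209 ± 107 and 149 ± 72.4 FPKM. Parietal epithelial markers, from the cells that line Bowman's capsule, were higher in 3 of 7 and lower in 1. *Cd44*, which activated parietal cells but also leukocytes carry, rose from 0.547 ± 0.099 to 3.14 ± 0.60 FPKM (2.52, edgeR adjusted p = 0.000194), and *Lad1*, the most abundant, fell from 66.6 ± 13.4 to 25.7 ± 1.56 FPKM (-1.37, edgeR adjusted p = 0.000806).

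Smooth muscle and pericyte markers were higher in 2 of 8, with *Tagln* both most abundant and changed (1.45, edgeR adjusted p = 0.0163). General endothelial markers passed in 0 of 8 by edgeR (6 at an unadjusted p-value under 0.05, beside 29.2% of all genes), with *Plvap* most abundant (0.57, edgeR adjusted p = 0.165) and *Tie1* at 0.48 (edgeR adjusted p = 0.0607). Tubule markers were lower in 3 of 8 and higher in 0, with 7 negative estimates and 1 positive. Their summed level was 4687 ± 398 FPKM in WT and 3173 ± 542 in RC/RC. The positive estimate was that of *Aqp2*, at 205 ± 80.7 FPKM in WT and 423 ± 142 in RC/RC (log2 fold change 1.05), which did not pass. *Slc12a3*, the thiazide-sensitive transporter, fell by 2.03 on the log2 scale (edgeR adjusted p = 0.00444), and *Slc34a1*, the most abundant, had a log2 fold change of -0.71 (edgeR adjusted p = 0.159). No marker on these lists was at 0 in any library. The part of these cell types in the podocyte values was not tested.

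**Figure D5:**
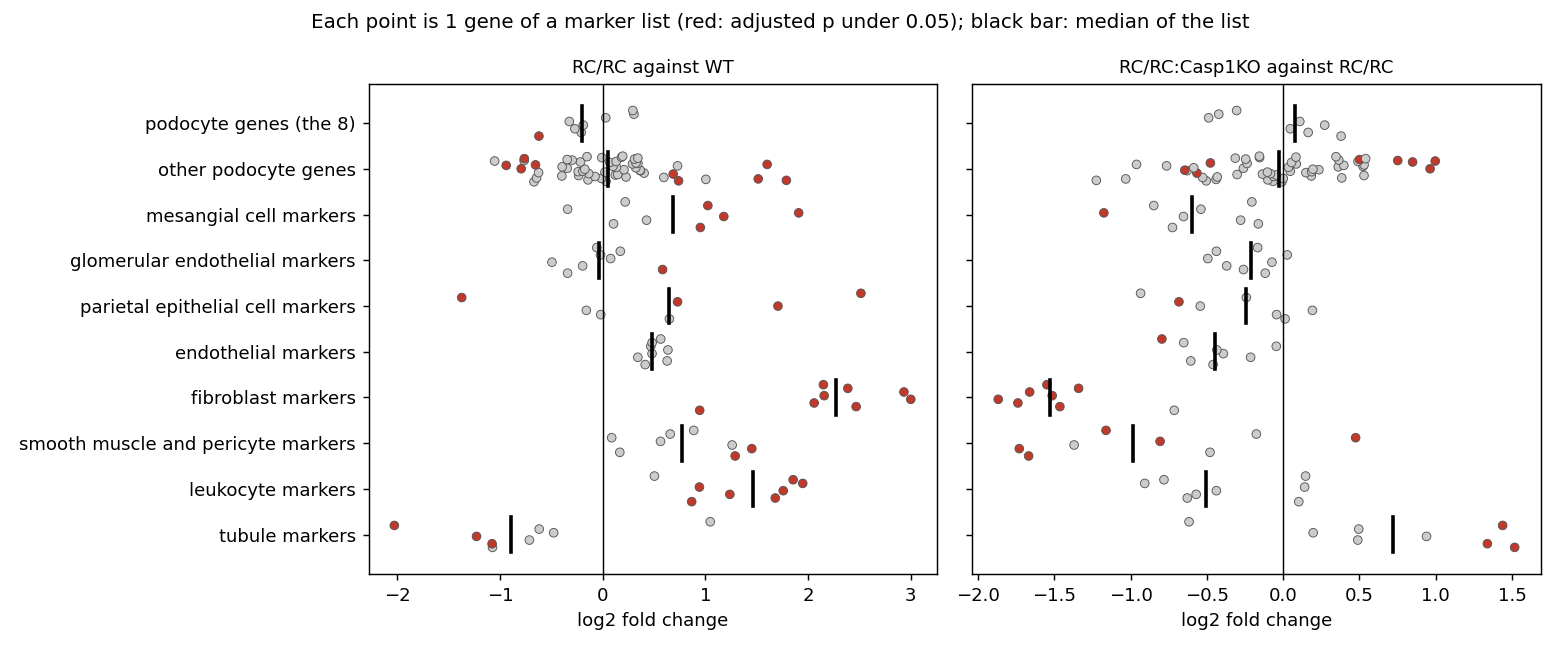
Log2 fold change (horizontal axis) of each tested gene of the 8 podocyte genes and of the 9 other marker lists, with 1 point per gene, red for an adjusted p-value under 0.05 and a black bar at the median of the list. In RC/RC against WT the fibroblast list has its median at 2.27, the tubule list at -0.89 and the 8 podocyte genes at -0.20.

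Between RC/RC:Casp1KO and RC/RC, fibroblast markers were lower in 7 of 8 and smooth muscle and pericyte markers lower in 4 and higher in 1. Of all genes, 7.23% were called higher and 4.41% lower in this comparison. Tubule markers were higher in 3 of 8, while leukocyte and glomerular endothelial markers passed in 0 of 8 each by edgeR (1 and 2 at an unadjusted p-value under 0.05, beside 31.7% of all genes). The leukocyte result rested on RC/RC:Casp1KO mouse Del3_70. *Cd68* was at 4.28 to 4.42 FPKM in the 3 other RC/RC:Casp1KO mice, at 10.4 FPKM in Del3_70 and at 7.60 to 10.4 FPKM in RC/RC mice. Without Del3_70, 3 of 8 leukocyte markers were lower (*Cd68*, *Adgre1* and *Itgam*), beside 9.04% of all genes called. The median of the list was then -1.01 in place of -0.50. Mesangial, parietal epithelial and endothelial markers were each lower in 1 gene (of 8, 7 and 8 tested), beside 4.41% of all genes. With single mice left out, fibroblast markers were lower in 1 to 7 of 8, with *Dcn* the only one to pass in all 8 fits, and smooth muscle and pericyte markers in 1 to 5. The share of all genes called in these fits was 2.77% to 17.8%. Without RC139, fibroblast markers were lower in 2 of 8 (*Dcn* and *Dpt*), tubule markers higher in 2, and the 3 lists with 1 gene had 0, beside 4.79% of all genes called. In RC/RC against WT fibroblast markers were higher in 6 of 8 without that mouse, leukocyte markers in 7, mesangial markers in 3 and glomerular endothelial markers in 0. Tubule markers were lower in 2, and 8.22% of all genes were called in that fit. In RC/RC:Casp1KO against WT, 2 marker genes passed in all, beside 2.03% of all genes (1.13% higher and 0.893% lower). *Dcn* was higher (1.02, edgeR adjusted p = 0.00799) and *Lad1* lower (-1.60, edgeR adjusted p = 0.00166).

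The genes whose levels most resembled the mean of the 8 members across the 12 mice were sought among 12863 genes with a mean of at least 1 FPKM. They were *4933404O12Rik* (Pearson correlation 0.93, Spearman correlation 0.97), *Tspan14* (0.89 and 0.92), *Snx12* (0.89 and 0.90), *Rbbp9* (0.88 and 0.94) and *Rnf208* (0.88 and 0.87). None of the 5 is on the podocyte list. All 12 points share library and depth with the members, and the values are descriptive.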

How the data were processed

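Poly(A) kidney RNA of 12 mice was sequenced by a commercial provider. The submitters' processing notes name CASAVA 1.8, STAR and mm10. The counting tool, annotation and strand setting are not given in the sources used here. The authors deposited raw read counts per gene for 35275 genes, with gene lengths and coordinates. Of 20054 matched protein-coding genes, 78.3% had a start or end within 10 bp of RefSeq GRCm38.p6. The authors' own fold changes, p-values, FPKM and normalized means in that table were not used.

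Columns name a group and a mouse, without sex or replicate number. All 18 within-group pairs of libraries differed by more than counting error (chi-square over its degrees of freedom, 15.7 to 128). Reads per library describe these mice only. The 95% intervals are estimates of a difference between groups, from 4 mice a group.

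Each comparison was a fit of 8 mice with edgeR 4.0.16 (R 4.3.3), using the quasi-likelihood test, TMM factors, filterByExpr and Benjamini-Hochberg adjustment over all genes, and was tested on simulated data. FPKM was computed from counts, gene lengths and TMM-scaled library sizes. Ratios to *Nphs1* were compared by exact permutation of 70 assignments, two-sided. Alternatives used DESeq2 1.42.0, limma 3.58.1 on log2(FPKM + 1) or log2(FPKM + 0.1) with library size alone, RLE factors, library size alone, other count filters, 1 fit over 12 mice and each mouse left out. Leaving out each mouse for the counts and medians of the gene lists was added after the data were seen.

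The members and marker lists were chosen with earlier results of these data known. Named were all members, at most 12 other podocyte genes with the smallest adjusted p, the 3 most abundant, and from each other list the most abundant gene and that with the smallest p in RC/RC against WT. Genes outside this rule, among them *Lmx1b*, *Ddn*, *Cd68*, *Adgre1*, *Dpt* and *Aqp2*, were named after their values were seen. *Adgre1* was read under its older symbol *Emr1*.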

Additional observations from a re-analysis of the deposited data

Results flagged for a closer look

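In groups of 4 mice, a value was singled out when its gap to the nearest other mouse exceeded Dixon's 95% critical value of 0.829 of the group's range. This held in 8 of 129 groups tested, and chance alone singles out about 1 group in 20. RC/RC mouse RC139 accounted for *Nphs1* at 6.16 FPKM (the other RC/RC mice 4.19 to 4.49), *Wt1* at 5.13 FPKM (3.91 to 3.96), *Cdkn1c* at 32.0 FPKM (15.3 to 16.4) and *Tdrd5* at 0.987 FPKM (0.700 to 0.733). The ratio of *Magi2* to *Nphs1* was 0.364 in RC/RC:Casp1KO mouse Del3_42, against 0.462 to 0.463 in the other 3 mice. Among marker genes of other cells, 1 RC/RC:Casp1KO mouse, Del3_70, had *Serpine2* at 15.8 FPKM (7.71 to 8.24), *Cd44* at 3.06 FPKM (1.02 to 1.27) and *Itgam* at 3.72 FPKM (0.785 to 1.14).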

How the results depend on the processing

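The *Nphs1* difference between RC/RC and WT kept its direction in 8 of 8 alternatives (-0.64 to -0.45) and passed in 5, with edgeR, DESeq2 or limma adjusted p-values of 0.00788 to 0.102. The number of members that passed was 0 with library size alone, with limma on log2(FPKM + 1) and with limma on log2(FPKM + 0.1). Both limma fits also used library size alone, so the part of the tool was not separated from that of the scale. With single mice left out it was 0 to 1, and *Nphs1* passed in 2 of 8 such fits (-0.79 to -0.55). Among the members' fold changes, 179 kept direction and call over the other alternatives, 3 lost the call and 10 reversed. *Nes* in RC/RC:Casp1KO against WT became -0.024 with DESeq2, -0.012 with RLE factors, -0.0065 with genes of at least 1 count and -0.0024 in 1 fit over 12 mice. *Magi2* and *Synpo* in that comparison became 0.10 and 0.026 with library size alone, 0.070 and 0.038 with limma on log2(FPKM + 1), and 0.090 and 0.041 with log2(FPKM + 0.1).

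All-gene counts moved as follows. DESeq2 called 3018 genes in RC/RC against WT, 3182 in RC/RC:Casp1KO against RC/RC and 1390 in RC/RC:Casp1KO against WT, beside 1971, 1797 and 311 by edgeR. In RC/RC:Casp1KO against RC/RC, library size alone gave 993 and limma on that same scale 1052 and 1106. A minimum of 10 counts in every mouse gave 167 in RC/RC:Casp1KO against WT. Leaving out single mice gave 1162 to 2440, 438 to 2789 and 108 to 547. Library size alone moved the median of all genes in RC/RC:Casp1KO against WT from 0.01 to 0.14 and raised the share of calls that were higher from 75.4% to 86.1%, 62.1% to 82.0% and 55.9% to 79.8% in the 3 comparisons. The cause was not tested.

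With single mice left out, the range crossed 0 for *Cdkn1c* in RC/RC against WT (-0.31 to 0.17), *Podxl* in RC/RC:Casp1KO against RC/RC (-0.023 to 0.17) and, in RC/RC:Casp1KO against WT, for *Magi2* (-0.11 to 0.036), *Ptpro* (-0.015 to 0.19), *Nes* (-0.064 to 0.10) and the log2 ratios to *Nphs1* of *Podxl* (-0.021 to 0.058) and *Wt1* (-0.012 to 0.10). Without RC/RC mouse RC139, an alternative added after the data were seen, 4 other podocyte genes passed in place of 9 and 3 in place of 8. Leaving out each mouse in turn, added likewise, gave 2 to 10 and 1 to 11. No paired analysis was possible because the columns carry none of the labels' replicate numbers. Each p-value sets a difference between groups against variation between mice, with 4 mice a group.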
